A study of Mus musculus with 6 samples.

Results

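The nuclear receptor family was described as 45 mouse genes, chosen from a list of symbols that leaves out Hnf4a, out of 43346 gene IDs counted in liver RNA-seq libraries. All 45 were found in the count tables. The study compared 3 Control libraries with 3 libraries labelled as double knockouts (DKO) of Ctnnb1, which encodes β-catenin, and Jup, which encodes γ-catenin, deleted in hepatocytes. All 6 libraries were made from total RNA of the liver of C57BL6 mice aged 3 months. The labels name the Control genotype only as Control and do not name the driver of the deletion. Libraries are numbered within each group, and nothing states that each number is a separate animal, so p-values measure the spread between these libraries, which may be technical.

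Nuclear receptors are transcription factors that bind DNA through a pair of zinc fingers and, in most members, bind a small lipophilic ligand such as a hormone, a bile acid, an oxysterol, a fatty acid or a drug. Many of the receptors for metabolites work as pairs with a retinoid X receptor, whereas steroid receptors pair with themselves. In hepatocytes the family is known for the control of bile acid, cholesterol, fatty acid and glucose metabolism and of drug clearance.

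The receptors share related coding sequences of the zinc finger that reads the DNA half-site, which are shown for some of the members that the results turn on. The pattern of cysteine codons that defines it was present in the longest reading frame of 43 members, as annotated in GENCODE M21 transcripts of GRCm38, the same build as mm10. The other 2 members, Nr0b1 and Nr0b2, did not encode it; they are the atypical family members known to lack a DNA-binding domain. Each stretch below is 69 bases long and read 5′ to 3′, and capitals mark the codons of the P-box, the residues that contact the half-site.
Nr1h4: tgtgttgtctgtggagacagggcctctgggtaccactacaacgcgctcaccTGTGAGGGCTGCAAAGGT
Nr1i3: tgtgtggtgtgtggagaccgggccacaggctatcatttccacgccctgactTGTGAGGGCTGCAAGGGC
Nr1i2: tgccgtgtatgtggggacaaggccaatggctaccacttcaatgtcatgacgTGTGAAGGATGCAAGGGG
Nr1h3: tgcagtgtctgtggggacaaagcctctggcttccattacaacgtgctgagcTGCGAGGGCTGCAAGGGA
Nr1h2: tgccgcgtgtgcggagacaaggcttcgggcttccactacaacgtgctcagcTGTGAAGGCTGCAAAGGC
Rxra: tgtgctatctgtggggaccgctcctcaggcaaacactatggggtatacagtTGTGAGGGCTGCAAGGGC
Nr1d1: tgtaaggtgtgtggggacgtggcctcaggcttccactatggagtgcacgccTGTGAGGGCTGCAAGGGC
Thra: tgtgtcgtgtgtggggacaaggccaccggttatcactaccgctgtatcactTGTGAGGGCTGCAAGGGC
Esr1: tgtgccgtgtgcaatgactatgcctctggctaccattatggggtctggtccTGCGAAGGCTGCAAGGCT
Nr2f6: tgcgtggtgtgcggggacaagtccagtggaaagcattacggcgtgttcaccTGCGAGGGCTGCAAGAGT
Translated P-boxes fell into 9 classes, and 27 members shared the most frequent one, among them the first 8 genes printed here. Esr1 and Nr2f6 each belonged to a different class. Nr1h2 and Nr1h3, a pair of oxysterol receptors, had 55 of 69 bases in common. The bile acid receptor Nr1h4 shared 54 bases with the xenobiotic receptor Nr1i3 and 47 with Rxra.

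The libraries labelled DKO differed from the Control libraries in depth and content, and each result below rests on them. Reads assigned to genes numbered 12320487 to 15869639 in Control, and in DKO replicates 1, 2 and 3 they numbered 309731, 525037 and 1491237. Albumin took 6.58% to 7.66% of gene reads in Control and 0.0933%, 3.08% and 0.322% in the libraries labelled DKO. Summed hepatocyte markers (7 genes, all detected in Control) stood at 93666 to 108185 CPM (gene reads scaled to library size) in Control and at 1705, 44296 and 4591 in the libraries labelled DKO. The 1659 sensory receptor genes, which liver does not use, held 10.7 to 16.1 CPM in Control and 2212, 1375 and 1077 in the libraries labelled DKO, and the 5 neuron markers held 16.4 to 19.7 against 642, 274 and 300. Mitochondrial genes took 62.7% of gene reads in DKO replicate 3. Ctnnb1 had 2945, 2896 and 2650 reads in Control and 0, 52 and 65 in the libraries labelled DKO. Jup had 339, 270 and 196 against 6, 1 and 11. In bulk tissue, fewer cells of a type and less RNA per cell cannot be told apart.

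Because of this content, each receptor count was set beside the number of reads expected in that library. The expectation added background, estimated from genes nearly silent in Control at the same GC content and scaled by exonic length, to liver RNA at the Control proportion, scaled on 163 abundant liver genes. Liver RNA on this scale made up 1.11%, 49.3% and 4.59% of gene reads in DKO replicates 1, 2 and 3, and background 45.7%, 19.4% and 16.7%. Counts carry exact 95% Poisson intervals, which cover counting error only. For Ctnnb1 itself, the 52 reads of DKO replicate 2 stood beside 52.5 expected from liver RNA and 7.56 from background, and the 65 of replicate 3 beside 13.9 and 18.8, so in neither library was it below what Control liver RNA and background would give beyond counting error. In DKO replicate 1, the 0 reads of Ctnnb1 stood beside 0.697 and 10.3, so nearly all of that expectation was background. For Jup, DKO replicates 1, 2 and 3 had 6, 1 and 11 reads. Liver RNA was expected to give 0.065, 4.88 and 1.29 of them, and background 10.6, 9.34 and 20.4. The 0 reads of Ctnnb1 and the 1 and 11 of Jup were below both parts together beyond counting error.

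In Control liver, receptors of metabolites and drugs were the most abundant members. Levels between genes were compared as RPKM, reads per kilobase of exon scaled to library size, as mean ± SD over 3 libraries. Nr1h4, the bile acid receptor FXR (chromosome 10, 89454234 to 89533585), was at 89.2, 85.2 and 87.2 RPKM, a mean of 87.2 ± 2.03. Nr1i3, the xenobiotic receptor CAR (chromosome 1, 171213970 to 171220701), was at 80.7, 83.5 and 82.7 RPKM, a mean of 82.3 ± 1.44. Each of these levels lay apart from that of the next gene in the order, in that no library overlapped. Nr1h3, the oxysterol receptor LXRα, followed at 55.1 ± 4.20 and Rxra, the partner of all of these receptors, at 54.4 ± 1.60. These 4 genes held 50.1%, 53.9% and 54.4% of the family's reads in the Control libraries.

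**Figure D1:**
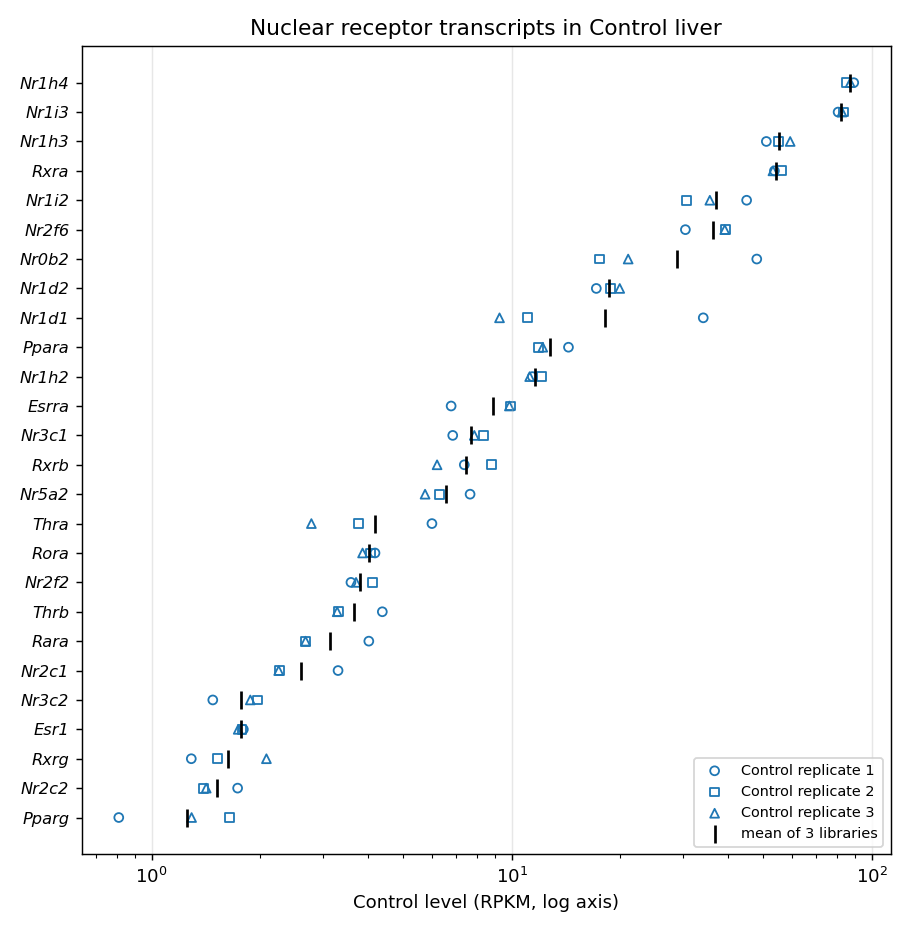
Levels of the 26 receptor genes with a Control mean of at least 1 RPKM, in RPKM on a log axis. Points are the 3 Control libraries and bars their mean; Nr1d1 spans 9.26 to 34.1 RPKM and Nr0b2 17.5 to 48.0 RPKM, while Nr1h4, Nr1i3 and Esr1 have points close together.

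The order of these leading genes depended on which exons carry the length. Of the exonic bases of Nr1i3, 74.9% are also exons of Tomm40l on the opposite strand, and of those of Nr2f6, an orphan receptor, 54.4% are also exons of Ocel1. The strand setting of the counting is not given in the sources used here, so reads in shared exons may belong to either gene or have been assigned to neither. Over unshared exons only, a calculation added after the data were seen, Nr1i3 reached 327 ± 5.73 RPKM and rank 1, and Nr2f6 reached 79.5 ± 11.1 and rank 3. Over the longest transcript, Nr1i3 was at 122 RPKM and Nr1h4 at 99.8. The levels of these 2 overlapped genes relative to the other members are therefore uncertain. Lower in the order, Rarb shares 34.1% of its exonic bases with Top2b, and Nr2c2 30.7% with Mrps25. Over unshared exons Rarb was at 1.395 RPKM against 0.92 over all exons, and Nr2c2 at 2.19 against 1.52.

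The next members were regulators of drug, bile acid, clock and fatty acid genes. Nr1i2, the xenobiotic receptor PXR, was at 37.0 ± 7.33 RPKM and Nr2f6 at 36.3 ± 5.08. Nr0b2, the corepressor SHP that FXR is known to induce, was at 28.9 ± 16.7. The clock repressors Nr1d2 and Nr1d1 were at 18.7 ± 1.40 and 18.1 ± 13.8. Ppara, the fatty acid receptor of the fasting response, was at 12.8 ± 1.37, and Nr1h2, the widely expressed oxysterol receptor LXRβ, at 11.6 ± 0.47. Each of Nr1i2, Nr2f6, Nr0b2, Nr1d2, Nr1d1 and Ppara overlapped the next gene in the order, and Nr1h2 lay apart from the next one, Esrra. These are the 11 members above 10 RPKM.

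Another 15 members lay between 1 and 10 RPKM. Esrra, a regulator of mitochondrial genes, led them at 8.86 ± 1.79 RPKM. Nr3c1, the glucocorticoid receptor, stood at 7.69 ± 0.75, Rxrb at 7.46 ± 1.29 and Nr5a2, a regulator of bile acid synthesis also called LRH-1, at 6.58 ± 0.99. The thyroid hormone receptors Thra and Thrb were at 4.18 ± 1.66 and 3.65 ± 0.62, with Rora and Nr2f2 between them at 4.03 ± 0.16 and 3.79 ± 0.27. Rara followed at 3.12 ± 0.77 and the orphan Nr2c1 at 2.61 ± 0.60. Nr3c2, the mineralocorticoid receptor, Esr1, the estrogen receptor α, Rxrg, Nr2c2 and Pparg, the adipocyte receptor, ranged from 1.78 down to 1.25. Of the 25 neighbouring pairs among the 26 members above 1 RPKM, 20 overlapped, so most of this order is not resolved by 3 libraries.

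The remaining 19 members were low or absent in Control liver. Rarb, Rarg, Nr6a1 and Ppard lay between 0.5 and 1 RPKM over all exons, with Rarb at 1.395 over unshared exons. Hnf4g and Nr4a1 were at 0.20 ± 0.14 and 0.19 ± 0.15, and Nr4a2, Esrrg, Nr2f1, Esrrb, Nr2e1 and Nr4a3 were lower. Pgr, Esr2, Vdr, Rorb, Nr0b1, Nr2e3 and Nr5a1 had no read in any Control library. Vdr, the vitamin D receptor, Pgr, the progesterone receptor, and Nr5a1, the steroidogenic factor, are known for roles in other tissues.

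Among the Control libraries, Nr1d1 and Nr0b2 varied most of the 26 members above 1 RPKM. Nr1d1, the clock repressor REV-ERBα, had 1664 reads in Control replicate 1 and 475 and 351 in replicates 2 and 3, a coefficient of variation (SD over mean of RPKM) of 76.3%. Nr0b2 had 862, 277 and 294 reads, a coefficient of variation of 57.7%. In both genes Control replicate 1 was the high library and the other libraries lay close together. These were the 2 members with a coefficient of at least 50%, a size that 4.88% of the 10248 genes above 1 RPKM had, and the median was 14.4% over the 26 members and 12.9% over all those genes. The paralog Nr1d2 did not show this spread, with 1476, 1424 and 1331 reads. Arntl, a clock activator gene that REV-ERB proteins are known to repress, had 31, 16 and 11 reads, and Per1, a clock gene, had 340, 422 and 417. The hour of collection is not given in the sources used here, and its part in this spread was not tested.

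The promoters of these 2 variable genes are shown for comparison, as the 250 bases before the RefSeq start on GRCm38.p6, 5′ to 3′ on the gene's strand. Nr1d1 lies on the minus strand at chr11:98775378-98775627 and Nr0b2 on the plus strand at chr4:133553126-133553375. Capitals mark matches on either strand to CACGTG, the E-box bound by clock activators, to AGGTCA, the receptor half-site, or to TCAAGG, the extended half-site bound by receptors such as Nr5a2.
Nr1d1: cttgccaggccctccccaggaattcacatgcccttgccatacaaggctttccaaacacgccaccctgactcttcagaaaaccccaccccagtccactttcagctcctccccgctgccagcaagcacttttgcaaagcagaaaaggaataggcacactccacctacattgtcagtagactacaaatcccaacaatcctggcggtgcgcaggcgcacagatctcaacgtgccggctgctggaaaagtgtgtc
Nr0b2: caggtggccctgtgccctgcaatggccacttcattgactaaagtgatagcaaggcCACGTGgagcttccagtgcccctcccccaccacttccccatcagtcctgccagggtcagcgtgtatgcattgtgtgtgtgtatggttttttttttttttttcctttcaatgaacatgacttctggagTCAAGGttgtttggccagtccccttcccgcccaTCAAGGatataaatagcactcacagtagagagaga
The Nr0b2 window held CACGTG starting 195 bases before the start and TCAAGG at 68 and 35 bases before it. The Nr1d1 window held none of these letters, which says nothing about other parts of the gene. Among 32817 windows of all genes, 6.02% held CACGTG, 14.0% AGGTCA and 12.5% TCAAGG. Of the 41 members with a window, 5 held CACGTG, 10 AGGTCA and 6 TCAAGG. The matches overlap no other motif searched in these windows and are a description of the letters only.

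In the libraries labelled DKO, the family held a share of nuclear gene reads that overlapped with Control, spread over other members. Family reads came to 31132, 26138 and 22797 in Control and 523, 719 and 1207 in the libraries labelled DKO. This was 0.185% to 0.196% of gene reads in Control, and the DKO replicates in order had 0.169%, 0.137% and 0.0809%. With mitochondrial genes left out, the family stood at 1978 to 2095 CPM in Control and at 1801, 1599 and 2172 in the libraries labelled DKO, so the groups overlapped. The share of family reads held by Nr1h4, Nr1i3, Nr1h3 and Rxra was 0.765%, 32.8% and 5.22% in the libraries labelled DKO, all below the Control libraries. The xenobiotic receptors went from 24.2 ± 0.42% of family reads in Control to 2.68%, 9.74% and 3.48%, and the retinoid X receptors from 17.5 ± 0.93% to 0%, 11.4% and 3.07%. Steroid hormone receptors went from 5.02 ± 0.52% to 31.0%, 12.5% and 14.4%. Background reads, which grow with exonic length, were not taken out of these shares or of the family totals. In DKO replicate 1, Nr3c1, Nr3c2, Esr1, Esr2 and Pgr had 45, 42, 61, 0 and 14 reads. Background alone was expected to give them 8.19, 11.8, 21.7, 6.66 and 13.5. Replicate 2, the library with the most albumin reads, lay nearest to Control in the share of the leading genes, the xenobiotic receptors and the steroid receptors.

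**Figure D2:**
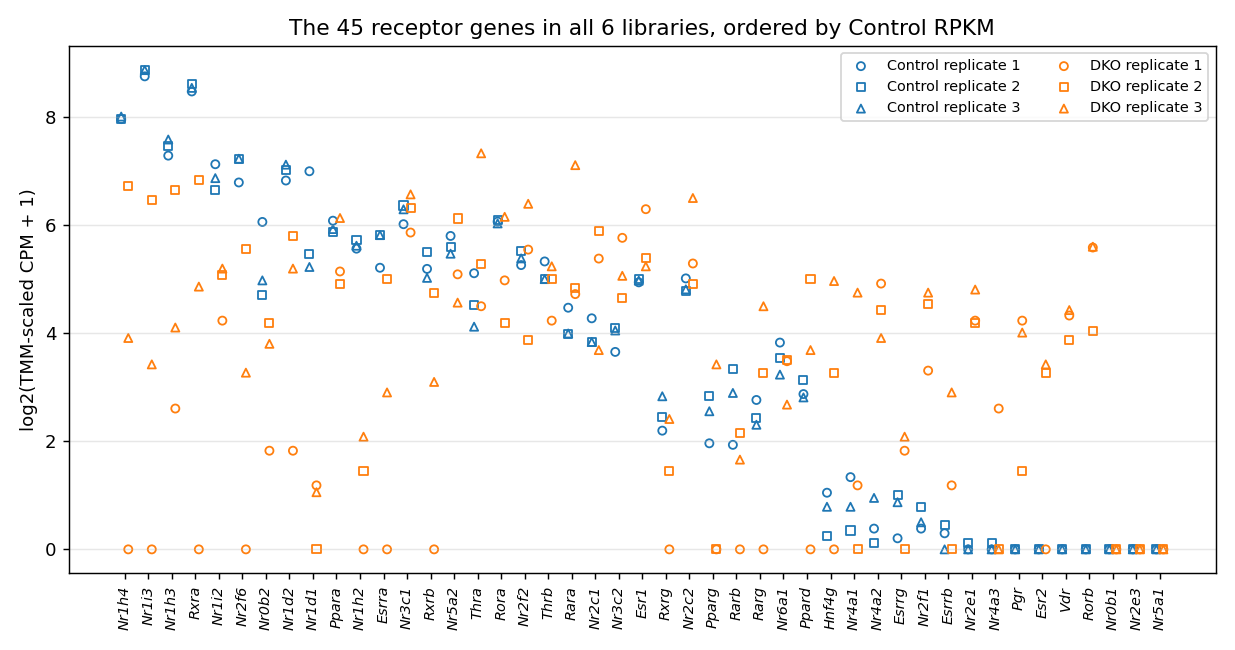
Each of the 45 receptor genes, ordered by Control level, with log2 of TMM-scaled CPM plus 1 in 3 Control (blue) and 3 libraries labelled DKO (orange). The leading Control genes lie lower in the libraries labelled DKO, with DKO replicate 2 (squares) nearest to Control, and several genes at 0 in Control have reads in the libraries labelled DKO.

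Of the 36 members with enough reads to be tested in edgeR's quasi-likelihood test, 6 were higher and 3 lower in the libraries labelled DKO at an adjusted p under 0.05. Over all 15561 genes tested, 44.1% were called, 31.3% higher and 12.8% lower. The lower members were Nr1d1, Nr1h2 and Nr1i2, and the higher ones were Rorb, Vdr, Pgr, Nr2e1, Nr4a2 and Nr2f1. The median log2 fold change of the 36 was -0.29, against -0.08 over all genes tested, with 20 members below 0 and 16 above. Counted by library, 12 members were lower in every library labelled DKO than in any of the Control libraries and 9 were higher, against 36.4% and 34.0% of all genes tested. The other 15 overlapped. The calls are read against these shares, and no test set the members against other genes. DESeq2 called 11 of 42 tested members lower, beside 4138 of all 23180 genes that it tested. It added Nr1i3, Nr1h4, Nr1h3, Nr0b2, Rxra, Nr1d2, Nr2f6 and Esrra, and each of these also passed in edgeR with DESeq2's size factors. The 9 members not tested in edgeR were Esr2, Nr4a1, Nr4a3, Nr0b1, Nr2e3, Nr5a1, Esrrb, Esrrg and Hnf4g, all with at most 30 reads over the 3 Control libraries. All 11 members above 10 RPKM had a log2 fold change below 0 in this fit, and in 10 of them, all but Ppara, the groups did not overlap. These members were picked by their Control level, and no such count was made over the 3266 genes at that level. The 7 hepatocyte markers also lay below 0, from -3.20 to -2.24, so the count is not a result about receptors. A scale set by the abundant liver genes moved the median of all genes to 4.69 (log2). On it, 22 members were called higher and 0 lower in edgeR (0 lower at an unadjusted p under 0.05). Over all 15561 genes tested, 9737 were higher and 84 lower on this scale. Of the 36 members, only Nr1d1, Nr1i3, Nr1h2, Rxra, Nr1h4 and Nr2f6 kept values below 0.

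**Figure D3:**
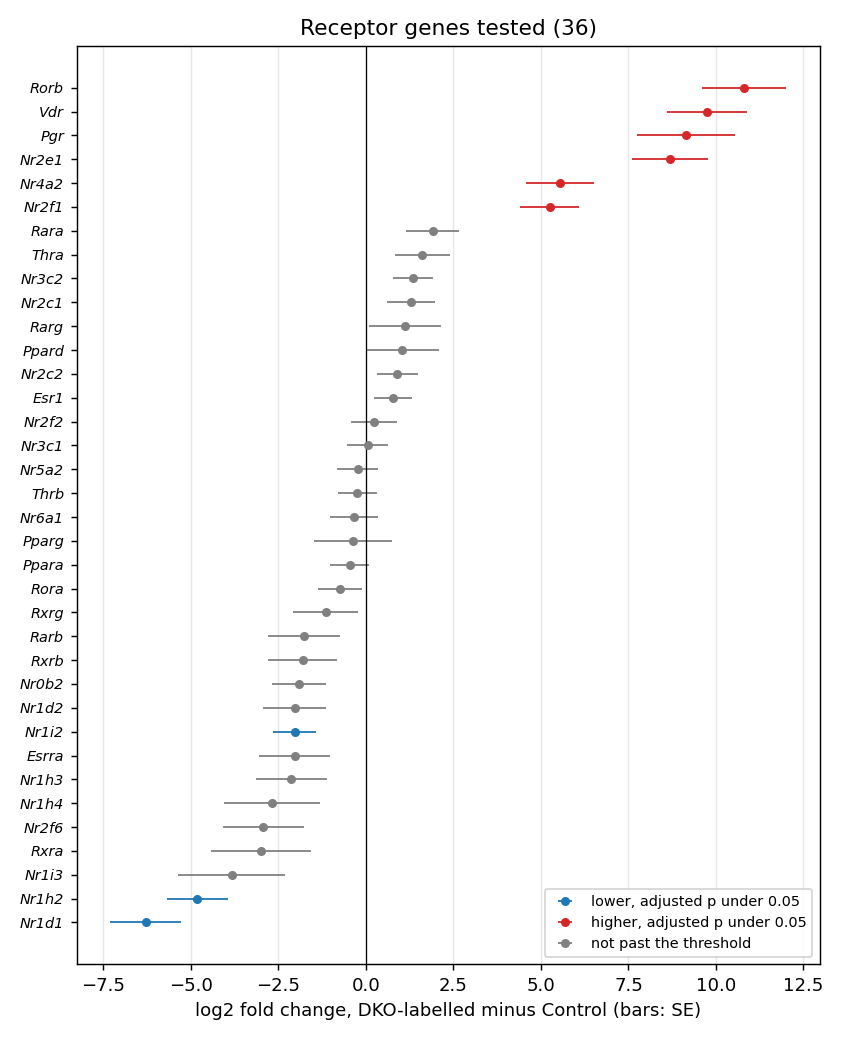
Log2 fold changes, DKO minus Control, of the 36 tested receptor genes with SE bars from edgeR's quasi-likelihood test. Blue points passed the adjusted p threshold as lower (Nr1d1, Nr1h2, Nr1i2) and red points as higher; the 6 red genes had at most 16 reads over the 3 Control libraries.

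Among the lipid and bile acid receptors, Nr1h2 fell and the other 7 members did not pass the threshold in edgeR. DESeq2 also called Nr1h3 (adjusted p = 0.0150), Nr1h4 (0.0295) and Nr0b2 (0.0119) lower, as did edgeR with DESeq2's size factors (0.0364, 0.0493 and 0.0259). Nr1h2 (ENSMUSG00000060601, chromosome 7, 44549616 to 44553951) had 608, 567 and 464 reads in Control and 0, 1 and 3 in the libraries labelled DKO. Its TMM-scaled level was 48.8 ± 2.68 CPM against 1.66 ± 1.62 CPM (SD, n = 3 each). In edgeR the log2 fold change was -4.81, with an SE of 0.86 and an adjusted p of 0.00166. The 3 reads or fewer in each library were also fewer than the 5.66, 14.9 and 13.3 expected from background and liver RNA together. In DKO replicates 1 and 3 they were below the 5.52 and 10.7 expected from background alone. Such counts were common: 41.8% and 27.4% of background genes with at least 5 expected reads had none in these libraries. The ratios to the joint expectation were 0, 0.067 and 0.225 in DKO replicates 1, 2 and 3. Genes with 1000 to 20000 Control reads had 5th percentiles of 0, 0.163 and 0.131, so only replicate 2 lay outside this scatter. On the scale of abundant liver genes the log2 fold change was -1.30 (adjusted p = 0.331), and it lay between -5.68 and -4.35 with each library left out in turn.

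Nr1h4 and Nr1h3 had lower mean levels that did not pass edgeR's test, and the libraries labelled DKO were unlike each other. Nr1h4 had 3261, 2737 and 2475 reads in Control and 0, 61 and 13 in the libraries labelled DKO, or 248.9 to 257.2 CPM against 0, 105 and 14.1 CPM. The log2 fold change was -2.68 (SE 1.38, adjusted p = 0.134 in edgeR). All values labelled DKO were below all Control values, and DKO replicate 2 was the highest of them. Its 61 reads stood beside an expectation of 54.7, and the 13 of replicate 3 beside 20.6, both within counting error. Nr1h3 had 2036, 1930 and 1841 reads in Control and 4, 58 and 15 in the libraries labelled DKO (log2 fold change -2.13, SE 1.03, adjusted p = 0.115). In DKO replicate 2 its 58 reads were above the 39.1 expected beyond counting error. The ratio of 1.48 lay inside the scatter of genes with 1000 to 20000 Control reads (95th percentile 2.87). Both fold changes depended on DKO replicate 2: without it they were -5.28 for Nr1h4 and -4.17 for Nr1h3, and both genes passed in edgeR as lower (adjusted p = 0.0136 and 0.00487). Without DKO replicate 1 Nr1h4 also passed, at -2.24 (0.0459).

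Ppara, Nr5a2 and Nr0b2 had other patterns. Ppara had 876, 635 and 577 reads in Control and 27, 17 and 64 in the libraries labelled DKO, and the groups overlapped in CPM (log2 fold change -0.47, SE 0.57, adjusted p = 0.507). Its reads were above the 7.76 and 17.2 expected in DKO replicates 1 and 3, and near the 18.3 expected in replicate 2. The ratios of 3.48 and 3.71 in replicates 1 and 3 lay inside the scatter of genes with 1000 to 20000 Control reads (95th percentiles 6.90 and 5.42). Nr5a2, with 718, 520 and 418 against 26, 40 and 21 reads, also overlapped (log2 fold change -0.24, SE 0.58, adjusted p = 0.749). Nr0b2 had 2, 10 and 12 reads in the libraries labelled DKO, where 1.98, 10.1 and 5.83 were expected, and its log2 fold change was -1.91 (SE 0.77, adjusted p = 0.0708). It passed without DKO replicate 1 (0.0491) or 2 (0.0361). Pparg and Ppard had log2 fold changes of -0.37 and 1.04 that did not pass, from 0, 0 and 9 and from 0, 18 and 11 reads. After background reads were subtracted, Pparg was called lower in edgeR (-7.79, adjusted p = 0.0396).

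Of the xenobiotic receptors, Nr1i2 fell and Nr1i3 did not pass the threshold in edgeR. Nr1i2 (ENSMUSG00000022809, chromosome 16, 38248323 to 38294824) had 1822, 1088 and 1118 reads in Control and 14, 19 and 33 in the libraries labelled DKO. Its level was 118 ± 20.02 CPM against 28.7 ± 9.57 CPM (SD, n = 3 each). In edgeR the log2 fold change was -2.04, with an SE of 0.62 and an adjusted p of 0.0242. The libraries labelled DKO were alike in CPM, and none reached a Control library. The call was lost without Control replicate 1, 2 or 3 (log2 fold changes of -1.83, -2.15 and -2.05, adjusted p = 0.0824, 0.0627 and 0.0706) and after background reads were subtracted (-1.92, 0.0905), with the fold change about as large, and on the abundant-gene scale the direction turned to 3.15 (0.105). The 14 and 33 reads of DKO replicates 1 and 3 were above the 4.99 and 14.9 expected. These ratios, 2.80 and 2.21, lay inside the scatter of genes with 1000 to 20000 Control reads (95th percentiles 6.90 and 5.42).

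Nr1i3 had the larger difference of the pair and the larger spread. It had 5655, 5144 and 4500 reads in Control and 0, 51 and 9 in the libraries labelled DKO, or 456 ± 21.2 CPM against 0, 87.7 and 9.74 CPM. The log2 fold change was -3.83 (SE 1.53, adjusted p = 0.0678 in edgeR), and the groups did not overlap. In all 3 libraries labelled DKO its reads were below expectation, which was 9.32, 99.8 and 39.5. Background was 8.07, 5.74 and 14.6 of this, scaled on all exons, of which 74.9% are shared with Tomm40l. If reads in shared exons were assigned to neither gene, this background is too high. In DKO replicate 1, liver RNA alone was expected to give 1.25 reads, and the interval of 0 reads reached 3.69. DKO replicate 2, where liver RNA was most abundant, held 0.511 of the expected reads. In that library, genes with 1000 to 20000 Control reads had 0.163 to 2.87 times their expected reads between the 5th and 95th percentile, with a median of 1.01, so the value of Nr1i3 lay inside the usual scatter of single genes. It passed the threshold in edgeR as lower without DKO replicate 1 (-3.38, adjusted p = 0.0176) or 2 (-6.66, 0.00804). It was also called lower by DESeq2 (0.00222) and in edgeR with DESeq2's size factors (0.0223) or upper-quartile scaling (0.0303).

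**Figure D4:**
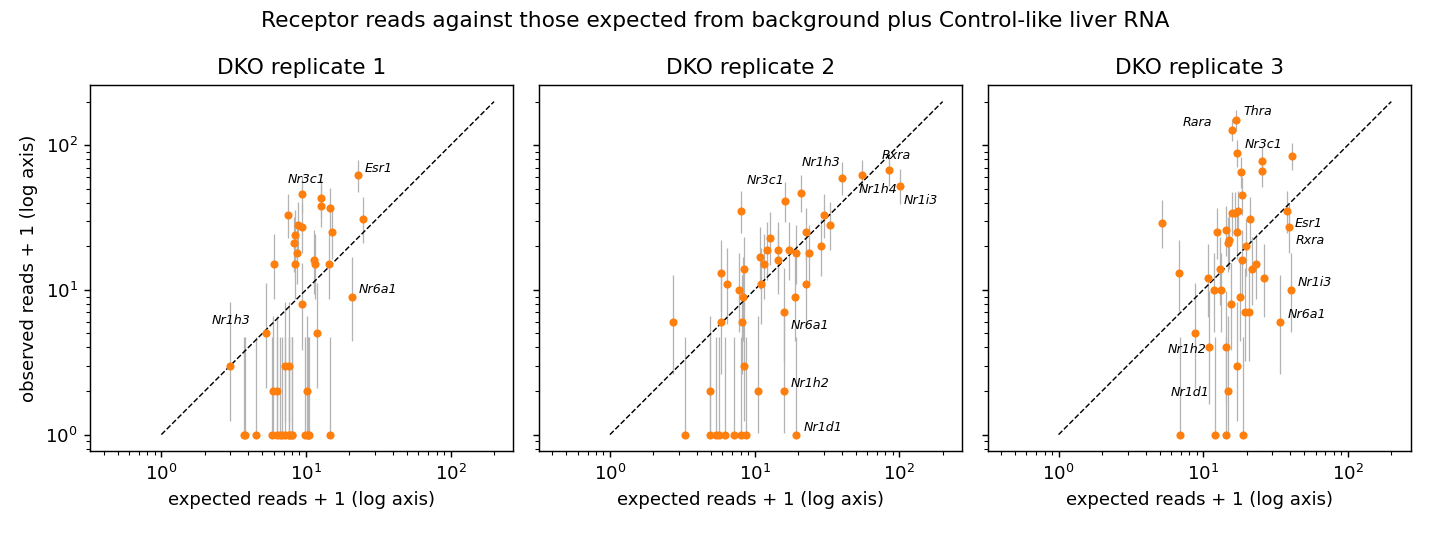
Reads of each of the 45 receptor genes in the 3 libraries labelled DKO (y axis, reads plus 1, with exact 95% Poisson intervals) against the reads expected from background plus liver RNA at the Control proportion (x axis); both axes are logarithmic and the dashed line marks equality. In DKO replicate 2 the leading liver receptors lie near the line, with Nr1d1 (0 reads) and Nr1h2 (1 read) below it, and in DKO replicate 3 Thra, Rara and Nr3c1 lie above it.

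None of the 3 retinoid X receptors, the shared partners, passed the threshold in edgeR with TMM scaling, at an adjusted or an unadjusted p under 0.05, or in limma-voom. Rxra was called lower by DESeq2 (adjusted p = 0.0125) and in edgeR with DESeq2's size factors (0.0401). Rxra had 4656, 4283 and 3581 reads in Control and 0, 66 and 26 in the libraries labelled DKO (log2 fold change -2.99, SE 1.43, adjusted p = 0.112 in edgeR). The 66 reads of DKO replicate 2 were within counting error of the 83.8 expected, and the 26 of replicate 3 were below 38.2. Rxra passed in edgeR as lower without DKO replicate 1 (-2.54, adjusted p = 0.0184) or 2 (-4.86, 0.0295). Rxrb had 466, 487 and 304 against 0, 15 and 7 reads (log2 fold change -1.80, SE 0.98, adjusted p = 0.154) and passed without DKO replicate 2 (-3.38, 0.0192). Rxrg had 47, 49 and 59 against 0, 1 and 4 reads, and its groups overlapped (log2 fold change -1.15, adjusted p = 0.322). After background reads were subtracted it was called lower in edgeR (-7.81, adjusted p = 0.0232).

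Retinoic acid and thyroid hormone receptors did not pass the threshold in edgeR, and several of them had more reads than expected in DKO replicate 3. Thra had 440, 242 and 158 reads in Control and 17, 22 and 148 in the libraries labelled DKO, where 7.67, 11.7 and 15.98 were expected. Thra was above expectation beyond counting error in all 3 libraries, and its log2 fold change was 1.61 (SE 0.79, adjusted p = 0.119 in edgeR). Its ratios to expectation were 2.22, 1.88 and 9.26. Genes with 1000 to 20000 Control reads had 95th percentiles of 6.90, 2.87 and 5.42, so only replicate 3 lay outside this scatter. Rara had 278, 163 and 144 reads in Control and 20, 16 and 127 in the libraries labelled DKO (log2 fold change 1.91, SE 0.75, adjusted p = 0.0647). All libraries labelled DKO were higher in CPM than all Control libraries for Rara and not for Thra, and in both genes DKO replicate 3 stood out. Without that library the log2 fold changes were 1.00 for Rara and 0.59 for Thra (adjusted p = 0.121 and 0.344 in edgeR). Without DKO replicate 1 both passed as higher (0.0159 for Rara and 0.0254 for Thra), and Rara did without replicate 2 (0.0367). Rara was also called higher by DESeq2 (0.0339) and in edgeR with DESeq2's size factors (0.0406), and both genes were with upper-quartile scaling (0.0225 for Rara and 0.0480 for Thra). Thrb, with 514, 342 and 299 against 14, 18 and 34 reads, overlapped (log2 fold change -0.24, SE 0.55, adjusted p = 0.724), and Rarb and Rarg had log2 fold changes of -1.77 and 1.12 from at most 20 reads in each library labelled DKO. Exons of Thra and Nr1d1 overlap by 263 bases on opposite strands. As the strand setting is not given, a part of the reads of either gene may not have been assigned.

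Of the steroid hormone receptors, Pgr was called higher and Nr3c1, Nr3c2 and Esr1 did not pass. Nr3c1, through which glucocorticoids act on liver glucose production, had 837, 894 and 746 reads in Control and 45, 46 and 87 in the libraries labelled DKO. Its level was 74.3 ± 9.23 CPM against 76.8 ± 18.5 CPM (SD, n = 3 each). In edgeR the log2 fold change was 0.05 (SE 0.58, adjusted p = 0.948). Its reads were 5.36, 2.30 and 5.36 times the expected 8.39, 20.01 and 16.2. Among background genes with at least 5 expected reads, the 95th percentile of that ratio was 4.65, 3.67 and 4.08, and among genes with 1000 to 20000 Control reads it was 6.90, 2.87 and 5.42. Nr3c1 and Thra were the only members above expectation in all 3 libraries. Nr3c2, with 152, 178 and 150 against 42, 14 and 30 reads (log2 fold change 1.35, SE 0.58, adjusted p = 0.0851), passed without DKO replicate 2 (0.0356) or 3 (0.0422). Esr1, with 390, 340 and 293 against 61, 24 and 34 reads, did not (0.77, SE 0.54, adjusted p = 0.253). Both were higher in CPM in every library labelled DKO than in any of the Control libraries. Expected reads were 21.7, 21.6 and 37.1 for Esr1, of which background was 21.7, 15.4 and 35.4. For Nr3c2 they were 11.8, 10.6 and 20.2, with background at 11.8, 7.60 and 19.4. Esr1 was above expectation in DKO replicate 1 only, and Nr3c2 in replicates 1 and 3, judged by counting error. After background reads were subtracted, the log2 fold changes were -0.25 for Esr1 and 0.77 for Nr3c2.

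Among the clock-linked receptors, Nr1d1 fell and Rorb was called higher. Nr1d1 (ENSMUSG00000020889, chromosome 11, 98767932 to 98775333) had 1664, 475 and 351 reads in Control and 1, 0 and 1 in the libraries labelled DKO. Its level was 127, 43.3 and 36.5 CPM in Control and 1.27, 0 and 1.08 CPM in the libraries labelled DKO. In edgeR the log2 fold change was -6.29, with an SE of 1.01 and an adjusted p of 0.00104. The lowest Control library was far above the highest one labelled DKO. In DKO replicates 2 and 3 its reads were below the 18.4 and 13.9 expected, and below the 3.94 and 10.1 expected from background alone. Its ratios to the joint expectation were 0.205, 0 and 0.072 in DKO replicates 1, 2 and 3. Genes with 1000 to 20000 Control reads had 5th percentiles of 0, 0.163 and 0.131. In replicate 3, 27.4% of background genes with at least 5 expected reads had none. The call held with each library left out in turn (adjusted p 0.00264 to 0.0126). On the abundant-gene scale the log2 fold change was -2.44 (adjusted p = 0.211). With DKO replicate 2, at 0 reads, as the only library labelled DKO, it was -12.21 (adjusted p = 0.246), a fit whose spread comes from the Control libraries alone.

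Nr1d2 and Rora, the other clock-linked members of Control liver, did not pass in edgeR. Nr1d2, the paralog of Nr1d1, had 2, 32 and 33 reads in the libraries labelled DKO, with 6.11, 29.5 and 15.5 expected (log2 fold change -2.04, SE 0.91, adjusted p = 0.0931). It passed without DKO replicate 1 (0.0115) or 2 (-2.87, 0.0409), and DESeq2 called it lower (0.00769). In DKO replicate 2, then, 32 reads of Nr1d2 stood beside 0 of Nr1d1, where 29.5 and 18.4 were expected. Rora, a clock activator that binds the same sites, had 866, 738 and 621 reads in Control and 24, 10 and 65 in the libraries labelled DKO, and its groups overlapped (log2 fold change -0.73, SE 0.63, adjusted p = 0.349). In DKO replicate 2 its 10 reads were below the 21.6 expected.

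The 6 members called higher had few or no reads in Control. Rorb, a clock-linked receptor of brain and retina, had 0 reads in every Control library and 37, 9 and 44 in the libraries labelled DKO. Vdr had 0 in Control and 15, 8 and 19, and Pgr had 0 in Control and 14, 1 and 14. Against a floor of 3 counts over the Control group, their TMM-scaled reads were 441, 206 and 142 times as many. These ratios include background reads and leave out the counting error of the libraries labelled DKO, so they are not bounds on the level of a transcript. Nr2e1, an orphan receptor of neural stem cells, had 1 read in Control and 14, 10 and 25 in the libraries labelled DKO (log2 fold change 8.68, SE 1.08, adjusted p = 0.000690 in edgeR). Nr4a2, an immediate early gene, had 4, 1 and 9 against 23, 12 and 13 reads (5.55, SE 0.97, adjusted p = 0.00147), and Nr2f1, an orphan receptor, had 4, 8 and 4 against 7, 13 and 24 (5.25, SE 0.85, adjusted p = 0.00104).

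These genes passed the filter on low counts through the libraries labelled DKO alone, and the background of these libraries moved with them. All 2792 tested genes (100%) with at most 10 Control reads were called higher. Background alone was expected to give Vdr 10.3, 7.35 and 18.7 reads, Pgr 13.6, 9.62 and 22.1 and Nr2f1 8.39, 7.39 and 16.2. No count of these 3 genes lay above its expectation beyond counting error, and the 1 Pgr read of DKO replicate 2 lay below. Rorb was above the 11.8 and 17.6 expected in DKO replicates 1 and 3, Nr2e1 above 7.34 and 13.4 in the same libraries, and Nr4a2 above 7.37 and 4.77 in replicates 1 and 2, judged by counting error alone. These ratios to expectation, 3.13 and 2.50 for Rorb, 1.91 and 1.86 for Nr2e1 and 3.12 and 2.47 for Nr4a2, lay inside the scatter of background genes, whose 95th percentiles were 4.65, 3.67 and 4.08 in DKO replicates 1, 2 and 3. After background reads were subtracted, Vdr, Pgr, Nr4a2 and Nr2f1 were too low to be tested. Rorb and Nr2e1 were tested and called higher, a direction that their 0 and 1 Control reads fixed. Markers of some other cell types moved with these libraries. The 5 cholangiocyte markers summed to 62.0 to 82.9 CPM in Control and 326, 187 and 141 in the libraries labelled DKO, with 3 of them called higher and 1 lower in edgeR. The 3 lymphocyte markers summed to 5.80 to 9.77 against 132, 118 and 69.7. Kupffer cell markers were lower in every library labelled DKO, at 149 to 204 against 29.1, 109 and 59.7 CPM. Sinusoidal endothelial markers (136 to 255 against 759, 219 and 143) and stellate cell markers (133 to 224 against 510, 130 and 145) overlapped between the groups. The part of such cells, and of the sensory and neuron genes above, in these 6 calls was not tested.

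The other orphan receptors did not pass the threshold in edgeR, which tested no member of the NR4A group besides Nr4a2. DESeq2 called Nr2f6 (adjusted p = 0.00724) and Esrra (0.0469) lower, and both passed in edgeR with DESeq2's size factors (0.0177 and 0.0471). Nr2f6 had 1439, 1636 and 1437 reads in Control and 0, 27 and 8 in the libraries labelled DKO, where 5.29, 32.3 and 16.9 were expected (log2 fold change -2.93, SE 1.16, adjusted p = 0.0663 in edgeR). Background was 4.91, 4.33 and 9.48 of the expected reads of Nr2f6, scaled on all exons, of which 54.4% are shared with Ocel1. It is too high if reads in shared exons were assigned to neither gene. Nr2f6 passed as lower without DKO replicate 1 (-2.50, 0.0175) or 2 (-5.07, 0.00806). Esrra, with 473, 608 and 533 against 0, 18 and 6 reads, had a log2 value of -2.04 (SE 1.02, adjusted p = 0.126) and passed without DKO replicate 2 (-3.99, 0.0104). Nr2f2 varied most in direction, with 36, 8 and 77 reads where 13.8, 18.2 and 24.6 were expected, and its log2 fold change was 0.23 (SE 0.66, adjusted p = 0.788). Nr2c1 had 32, 34 and 11 reads where 6.53, 7.11 and 9.81 were expected (1.29, SE 0.68, adjusted p = 0.141) and passed as higher without DKO replicate 3 (0.00908). Nr2c2 had 30, 17 and 83 reads and its log2 fold change was 0.90 (SE 0.59, adjusted p = 0.226), and Nr6a1 had 8, 6 and 5 reads where 19.7, 14.9 and 33.0 were expected (-0.33, SE 0.68, adjusted p = 0.697). Background alone made up 19.7, 12.7 and 32.4 of the expected reads of Nr6a1. After background reads were subtracted Nr6a1 was called lower in edgeR (-8.99, adjusted p = 0.0109). Nr0b1, Nr2e3 and Nr5a1 had no read in any of the 6 libraries.

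Over all 45 members, 14, 6 and 16 were above the expected reads in DKO replicates 1, 2 and 3, and 17, 15 and 16 were below. The same count was not made over all genes, so these numbers are not a result about the family. Other genes scattered widely too. In DKO replicate 1, 30.1% of genes with 1000 to 20000 Control reads had no read, and 17.5% had at least 3 times their expected reads. In DKO replicate 2 most members, 24 of 45, were within counting error. The 8 members below expectation in all 3 libraries were Nr1i3, Nr1h2, Nr6a1, Rarb, Esrrb, Nr4a3, Nr2e3 and Nr5a1. The last 3 of these had at most 1 read over the Control libraries, so nearly all of their expectation was background. Background was also most of the expectation of Esrrb, Rarb and Nr6a1. Liver RNA gave 0.000545, 0.041 and 0.0108 reads of Esrrb in DKO replicates 1, 2 and 3. It gave 0.0167, 1.25 and 0.331 of Rarb and 0.0296, 2.23 and 0.589 of Nr6a1. For Nr1i3 in DKO replicate 1, background was 8.07 of the 9.32 expected, estimated over exons largely shared with Tomm40l. Background is an average over genes: the median background gene with at least 5 expected reads had 0.182, 0.355 and 0.309 of its expected reads in DKO replicates 1, 2 and 3, and 41.8%, 33.1% and 27.4% of them had none.

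Calls among the coregulators through which receptors act are given beside the share of all genes tested, 31.3% higher and 12.8% lower. Of 14 tested coactivators, 4 were called higher and 1 lower. Ppargc1b, a coactivator of mitochondrial genes, had 135, 58 and 59 reads in Control and 50, 15 and 126 in the libraries labelled DKO (log2 fold change 3.38, adjusted p = 0.00485 in edgeR). Ncoa4, known as a cargo receptor for ferritin as well as a coactivator, had 914, 772 and 707 against 10, 12 and 11 reads (-2.25, adjusted p = 0.00893). Of 8 corepressors, 1 was higher and 2 lower, the latter being Tbl1x and Gps2, subunits of the NCoR complex (-2.15 and -2.84, adjusted p = 0.0266 and 0.0274). The median log2 fold change was 0.95 over the coactivators and 0.88 over the corepressors. After background reads were subtracted the medians turned to -1.33 and -0.34, with 2 coactivators higher and 3 lower, and 0 corepressors higher and 2 lower. On the abundant-gene scale they were 6.29 and 6.72, with 12 and 6 higher and 0 lower.

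Genes that the receptors are known to regulate in liver mostly had values below 0, and few passed. Of 13 PPARα targets 1 was lower, Vnn1 (-2.96, adjusted p = 0.0268 in edgeR), and Angptl4 did not pass (-3.61, 0.0641). Of 8 LXR targets Lpcat3, a phospholipid-remodelling enzyme, fell (1478, 1309 and 1112 against 8, 7 and 4 reads, log2 fold change -3.74, adjusted p = 0.00155) and Abcg1, a cholesterol exporter, rose (2.99, 0.0215). None of 4 tested FXR targets passed in edgeR, with Abcb11, the bile salt export pump, at -2.54 (0.0572) and Apoc2 at -2.45 (0.120), and 1 of the 4 had an unadjusted p under 0.05. DESeq2 called 3 FXR targets lower and limma-voom 1. Of 11 CAR and PXR targets, Cyp3a13 (-2.65, 0.0175) and Ugt1a1 (-3.96, 0.0251) fell. Limma-voom called 1 of the 11 lower, and edgeR called 0 lower after background subtraction or on the abundant-gene scale (0 lower at an unadjusted p under 0.05 in both). Medians were -2.66 for PPARα, -2.13 for LXR, -2.50 for FXR and -2.75 for CAR and PXR targets. On the abundant-gene scale these medians turned to 0.33, 1.72, 1.78 and 0.02, below the 4.69 of all genes. DESeq2 called 10 PPARα, 7 LXR and 8 CAR and PXR targets lower, beside 4138 of all 23180 genes that it tested. The 7 hepatocyte markers, of which 0 passed in edgeR (0 at an unadjusted p under 0.05) or limma-voom and 7 in DESeq2, had a median of -2.98 in edgeR, and their part in the values of these lists was not tested.

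Targets of the hormone and clock receptors were less uniform. Of 9 glucocorticoid receptor targets, Zbtb16 rose (2.30, adjusted p = 0.0156 in edgeR) and Per1 fell (340, 422 and 417 against 2, 8 and 1 reads, -2.75, 0.0306). Of 5 tested thyroid hormone receptor targets Dio1, the deiodinase that activates thyroid hormone, fell (-3.79, 0.0355), and Me1 did not pass (-2.09, 0.0672). DESeq2 called 3 of this list lower, limma-voom 0 (2 at an unadjusted p under 0.05), and edgeR 0 after background subtraction or on the abundant-gene scale (0 lower at an unadjusted p under 0.05 in both). Of 6 targets of REV-ERB and ROR receptors, Npas2 and Arntl, partners in the clock activator, were called higher. Arntl had 31, 16 and 11 reads in Control and 13, 6 and 12 in the libraries labelled DKO (log2 fold change 2.99, adjusted p = 0.00755). Npas2 had 1 read in Control and 6, 2 and 26 (8.08, 0.000976), and as a gene with at most 10 Control reads it had to pass in this direction. After background reads were subtracted, 0 of the 4 targets tested in this list were higher and 3 were lower in edgeR, and the median turned from -0.39 to -3.51. None of 5 tested retinoic acid receptor targets passed, with Tgm2 at -1.41 (0.121) and Dhrs3 at -1.27 (0.152), and 0 had an unadjusted p under 0.05. DESeq2 called 2 of them lower and limma-voom 0.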

How the data were processed

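RNA-seq gene counts of 6 mouse liver libraries were used, 3 Control and 3 labelled DKO, grouped and numbered by their titles. Each deposited table holds raw read counts by Ensembl gene ID. The submitters' processing notes name STAR, HTSeq and the build mm10 for the authors' steps, with versions, strandedness and annotation not given in the sources used here. Rows that name no gene held 65.1% to 66.7% of reads in Control and 95.3% to 97.3% in the libraries labelled DKO, and were left out of every total and test.

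Of 43346 IDs, 42462 matched a gene name table. Exonic lengths, GC content and coordinates came from GENCODE M21 (GRCm38), promoters from RefSeq (GRCm38.p6), with 41 of 45 members matched. The main test was edgeR 4.0.16 in R 4.3.3 (quasi-likelihood, robust, TMM, filterByExpr by group, two-sided, no covariates), fitted on the whole table with Benjamini-Hochberg adjustment over 15561 genes and a threshold of 0.05. The test was tested on simulated data with less spread between libraries than these and no background reads, so its outcome does not carry over to them. RPKM used total gene reads and union exon length. Background reads per kilobase were estimated in 10 GC bins from the 8600 protein-coding genes that had 10 or fewer Control counts. The liver scale was the median ratio to Control over 163 genes with over 30000 Control counts. Without molecular identifiers, the intervals and floors describe counting error only.

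The members and lists were chosen with earlier results of these data known, and of 167 listed symbols 166 were found. Another marker and some sequences are not reported here. Named with values were the members with at least 1 RPKM in Control, those called, at least 1 per role group, and of each pathway list the 2 genes with the smallest adjusted p. Other genes named were chosen after their values were seen. Alternatives were DESeq2 1.42.0, limma-voom (limma 3.58.1), other scalings and filters, background subtraction, an adjusted p of 0.01, a block for replicate number, and fits lacking 1 library each. No libraries of a group agreed within sampling noise (chi-square per degree of freedom 5.95 to 68.2).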

Additional observations from a re-analysis of the deposited data

How the results depend on the processing

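The calls depended on the scaling and on single libraries. Genes called numbered 6863 in edgeR, 12973 in DESeq2 (8835 higher and 4138 lower, against 4871 and 1992), 16127 without a filter and 4569 at an adjusted p of 0.01, and 4710 to 9728 with each library left out in turn. On the abundant-gene scale 9737 were higher and 84 lower, and after background subtraction 2301 and 2769. Members called higher numbered 6 in the main analysis, 22 on the abundant-gene scale, 2 after background subtraction, 10 without a filter and 6 to 10 with a library left out. Members called lower numbered 3 in the main analysis, 11 with DESeq2 or its size factors, 6 with upper-quartile scaling, 0 on the abundant-gene scale, 5 after background subtraction (Nr1i2 lost its call, and Pparg, Rxrg and Nr6a1 gained one), 12 without a filter and 2 to 12 with a library left out. With DKO replicate 2 as the only library labelled DKO, a setting added after seeing the data, 11 were lower; the spread then comes from the Control libraries alone, and the lone library is assumed to vary like them. On the abundant-gene scale the log2 fold change turned positive for 14 of the 20 members below 0, Ppara (5.06), Pparg (3.60), Nr5a2 (5.20), Nr1i2 (3.15), Thrb (4.96), Rora (4.82), Nr6a1 (5.38), Nr1h3 (1.20), Nr0b2 (2.02), Rxrb (1.13), Rxrg (2.26), Rarb (1.37), Nr1d2 (1.49) and Esrra (0.74), with that of all genes at a median of 4.69. It turned negative for Nr2f2 (-1.57) with DKO replicate 2 alone. Signs also turned among members without a call. After background subtraction Ppard (-0.18), Rarg (-0.49), Esr1 (-0.25), Nr2c2 (-0.14) and Nr2f2 (-0.09) were below 0. So were Ppard (-0.03) and Nr2f2 (-0.06) in limma-voom and Nr3c1 (-0.28) without a filter. With upper-quartile scaling Nr5a2 (0.10), Thrb (0.06) and Nr6a1 (0.09) turned positive. The cause of these shifts was not tested. All 9 member calls were shared by DESeq2, limma-voom, both other scalings besides the abundant-gene scale, and both other filters. The abundant-gene scale shared 6, background subtraction 4, and a replicate block or the lack of any Control library 8. The 6 higher calls were of genes that passed the filter through the libraries labelled DKO alone, so agreement between tools is no support for them.

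The replicate numbers are shared by the groups. Deviations of same-numbered libraries had correlations of 0.12, 0.07 and -0.02, and those of differently numbered ones -0.14 to 0.09. No pairing was visible, but 3 libraries per group, with few gene reads in those labelled DKO, cannot exclude it. With a replicate block, 8 members were lower and 6 higher. Nr1i2 lost its call (adjusted p = 0.0774).

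The number of members with at least 1 RPKM in Control was 26, and 26 to 30 under other lengths, scalings and left-out libraries. Summed over the libraries labelled DKO, 27 members had more reads than background alone would give, 27 with background genes of at most 3 Control counts and 30 without GC bins. Depth limits these statements: in DKO replicate 1, liver RNA at the Control proportion would give 1.25 reads of Nr1i3 and 0.691 of Nr1h4, so a count of 0 there says little about liver transcripts.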
